A study of Mus musculus with 12 samples.

Results

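The semaphorins, plexins, ephrins, Eph receptors, Slits, Robos, netrins and Unc5 receptors were followed by their place in the maps of accessible chromatin of mouse aortic endothelial cells. The genes were chosen by symbol alone: protein-coding genes on chromosomes 1 to 19 and X whose symbols start with Sema, Plxn, Epha, Ephb, Efna, Efnb, Robo, Unc5 or Ntn, or with Slit followed by a number. The rule gave 70 genes of 21631. It also caught Unc50, which shares only the start of its symbol with the Unc5 receptors. The role groups used below follow the symbols too, so Unc5cl, Ntng1 and Ntng2 were counted with the netrins and Unc5 receptors by symbol alone. Peaks in a gene or within 10 kb of its span were assigned to it, which gave 186 merged regions near guidance genes, of 32722 near any protein-coding gene and 48003 in all.

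The cells came from offspring in 4 groups, named by the diets of the mothers (WDM or CDM) and of the offspring (WDO or CDO). CD and WD are the labels' abbreviations, and the title of the study speaks of a maternal high-fat diet. In WDM-WDO both generations had WD, in WDM-CDO only the mothers, in CDM-WDO only the offspring, and in CDM-CDO neither. The offspring of both WDO groups had been on WD for 4 weeks. No strain, genotype or age is given in the sources used here. The order of mother and offspring was read from the group names and sample titles. The peak names carry 12w in both WDO lists and 08w in both CDO lists, so the diet of the offspring and whatever that label stands for cannot be told apart.

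The maps came from ATAC-seq, an assay whose transposase inserts sequencing tags where DNA is not packed away. There were 8 ATAC-seq samples, 2 per group, but each group had a single peak list. No list separated the samples, so no difference below carries a p-value or a replicate error. Intervals are 95% Wilson intervals and cover counting error only. The comparisons are therefore of which peaks were called in which list, beside the same quantity for all protein-coding genes. Each list enters 2 comparisons, so the comparisons are not independent of each other.

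These families carry signals between neighbouring cells. Semaphorins act through plexins, whose intracellular part controls small GTPases, and most secreted semaphorins also need neuropilins as coreceptors. Ephrins are bound to the membrane and signal through Eph receptor tyrosine kinases, Slits bind Robo receptors, and netrins act through Dcc, neogenin and the Unc5 receptors. All were first known from growing axons and are used again in vessels: ephrin-B2 (Efnb2) marks arterial and EphB4 (Ephb4) venous endothelium, plexin-D1 (Plxnd1) and Unc5b restrain sprouting, and Robo4 is largely an endothelial receptor.

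The promoters on which several results turn are given as the 250 bases before the annotated start, 5′ to 3′ on the strand of the gene, from RefSeq sequence of GRCm38.p6. Plxnd1 and Plxna3 had a promoter peak in both WDM lists and in neither CDM list, Sema7a in both CDO lists and in neither WDO list, and Efnb2 and Ephb4 in all 4 lists. Capitals mark every match to CCNCNCCC, the pattern that KLF and SP factors bind, or to its reverse complement; overlapping matches run together. The windows lie at chr6:115995006-115995255 (minus strand) for Plxnd1, chrX:74328816-74329065 (plus strand) for Plxna3, chr9:57939862-57940111 (plus strand) for Sema7a, chr8:8661243-8661492 (minus strand) for Efnb2 and chr5:137349859-137350108 (plus strand) for Ephb4.
Plxnd1: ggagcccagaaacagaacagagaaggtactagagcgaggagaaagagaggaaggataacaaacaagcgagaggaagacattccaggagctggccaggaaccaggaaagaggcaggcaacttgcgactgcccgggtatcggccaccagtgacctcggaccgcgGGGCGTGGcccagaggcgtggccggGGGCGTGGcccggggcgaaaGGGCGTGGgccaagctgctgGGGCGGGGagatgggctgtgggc
Plxna3: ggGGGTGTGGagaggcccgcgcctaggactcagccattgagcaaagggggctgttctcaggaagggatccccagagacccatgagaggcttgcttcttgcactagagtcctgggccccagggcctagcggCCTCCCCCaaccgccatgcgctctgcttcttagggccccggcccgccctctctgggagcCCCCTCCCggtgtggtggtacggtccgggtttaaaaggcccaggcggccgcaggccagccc
Sema7a: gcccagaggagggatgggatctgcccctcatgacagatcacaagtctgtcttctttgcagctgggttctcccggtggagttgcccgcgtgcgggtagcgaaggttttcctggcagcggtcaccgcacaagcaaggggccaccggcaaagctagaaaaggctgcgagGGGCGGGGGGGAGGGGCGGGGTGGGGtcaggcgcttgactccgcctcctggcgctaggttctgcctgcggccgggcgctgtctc
Efnb2: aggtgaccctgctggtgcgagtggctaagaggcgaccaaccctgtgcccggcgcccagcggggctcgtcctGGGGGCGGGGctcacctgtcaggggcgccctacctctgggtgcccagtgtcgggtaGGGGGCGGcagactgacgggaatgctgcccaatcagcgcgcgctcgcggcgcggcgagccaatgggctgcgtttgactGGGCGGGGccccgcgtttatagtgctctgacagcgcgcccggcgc
Ephb4: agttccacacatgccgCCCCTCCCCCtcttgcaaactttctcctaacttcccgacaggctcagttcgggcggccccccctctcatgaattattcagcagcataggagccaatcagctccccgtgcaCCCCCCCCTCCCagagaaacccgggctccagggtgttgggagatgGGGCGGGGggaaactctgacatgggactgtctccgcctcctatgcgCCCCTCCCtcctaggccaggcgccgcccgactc
The pattern was matched 4 times in Plxnd1, 3 times in Plxna3, 5 times in Sema7a, 4 times in Efnb2 and 6 times in Ephb4. It was in 66 of 77 promoter windows of guidance genes. Its presence in these 5 therefore cannot bear on the lists in which they had a peak. The Sema7a promoter peaks began at chr9:57940082 and reached only the last bases of its window. All 5 of its matches lay outside those peaks. In Plxnd1 all 4 matches lay within 88 bases of the start, and neither the AP-1 pattern TGANTCA, nor CCGGAAG of the ETS factors, nor AGATAA of the GATA factors, nor AACAAT of the SOX factors was found in any of the 5 windows on either strand.

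Promoter windows of guidance genes as a whole were rich in G and C. Over 77 windows of the 61 genes with RefSeq promoter sequence, the median GC content was 64.0%, against 55.6% over 21045 windows of all genes. CCNCNCCC was in 85.7% of them (66 of 77, interval 76.2 to 91.8%), against 53.4% of all windows; a window richer in C and G holds such a pattern more often. The other 4 patterns were each in 3 of 77 windows (3.90%, interval 1.33 to 10.8%), against 6.17% of all windows for AP-1, 9.08% for ETS, 8.84% for GATA and 8.07% for SOX. A match is a description of the letters and not a bound site.

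The lists held 26275 peaks in WDM-WDO, 28319 in WDM-CDO, 18962 in CDM-WDO, against 22178 in CDM-CDO, and the median number of reads at a summit was 39 in WDM-WDO, 38 in WDM-CDO, 31 in CDM-WDO, against 36 in CDM-CDO. Endothelial markers had a peak in every list, at 11 of 15 genes in WDM-WDO (19 peaks), 14 in WDM-CDO (35 peaks), 15 in CDM-WDO (26 peaks), against 10 in CDM-CDO (11 peaks). Pecam1, Kdr, Tie1 and Vwf had a peak in all 4 lists, and Cdh5 and Tek had none in CDM-CDO. Lymphocyte markers also had peaks, at 9 of 12 genes in WDM-WDO (20 peaks), 12 in WDM-CDO (28 peaks), 6 in CDM-WDO (8 peaks), against 11 in CDM-CDO (22 peaks), and Cd4, Cd8a, Cd3e and Bcl11b had none in CDM-WDO. Macrophage and monocyte markers had a peak at 12 of 12 genes in WDM-WDO (24 peaks), 6 in WDM-CDO (11 peaks), 5 in CDM-WDO (8 peaks), against 8 in CDM-CDO (12 peaks), and Trem2 and Mrc1 had one in WDM-WDO alone. Smooth muscle markers had one at 5 of 9 genes in each list but CDM-WDO, which had 2, fibroblast markers at 4 to 5 of 8, and nerve and Schwann cell markers at 2 to 4 of 8. Of all genes, 66.0% had a peak within 10 kb in WDM-WDO, 68.8% in WDM-CDO, 58.9% in CDM-WDO, against 64.5% in CDM-CDO. The endothelial counts of WDM-WDO and CDM-CDO lay near these shares, and the lymphocyte counts of both CDO lists lay above them. The markers move with several results below, and their part in them was not tested.

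The share of guidance genes with a peak nearby was above that of all genes in every list, and the share with a peak at either end of the gene was below it. A peak within 10 kb was found for 50 of 70 genes in WDM-WDO (71.4%, interval 59.9 to 80.7%, against 66.0% of all genes) and 56 in WDM-CDO (80%, 69.2 to 87.7%, against 68.8%). It was found for 45 in CDM-WDO (64.3%, 52.6 to 74.5%, against 58.9%), compared with 49 in CDM-CDO (70%, 58.5 to 79.5%, against 64.5%). Only the WDM-CDO interval lay wholly above the share of all genes. A gene-end peak, that is one no more than 1 kb from either end of the gene, was found for 21 genes in WDM-WDO (30%, interval 20.5 to 41.5%, against 47.6% of all genes). The number was 29 in WDM-CDO (41.4%, 30.6 to 53.1%, against 51.2%), 13 in CDM-WDO (18.6%, 11.2 to 29.2%, against 40.2%), compared with 25 in CDM-CDO (35.7%, 25.5 to 47.4%, against 48.1%). Guidance genes are long, with a median span of 45.2 kb against 17.3 kb, and 15 of them (21.4%, against 2.58% of all genes) exceed 300 kb. Set beside all genes of like length, the share with a peak nearby was higher under 50 kb and lower above, in every list. In WDM-CDO, for example, 31 of 36 guidance genes under 50 kb had one, against 10761 of 16690 genes. From 50 to 300 kb it was 15 of 19, against 3647 of 4384, and over 300 kb 10 of 15, against 478 of 557.

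**Figure D1:**
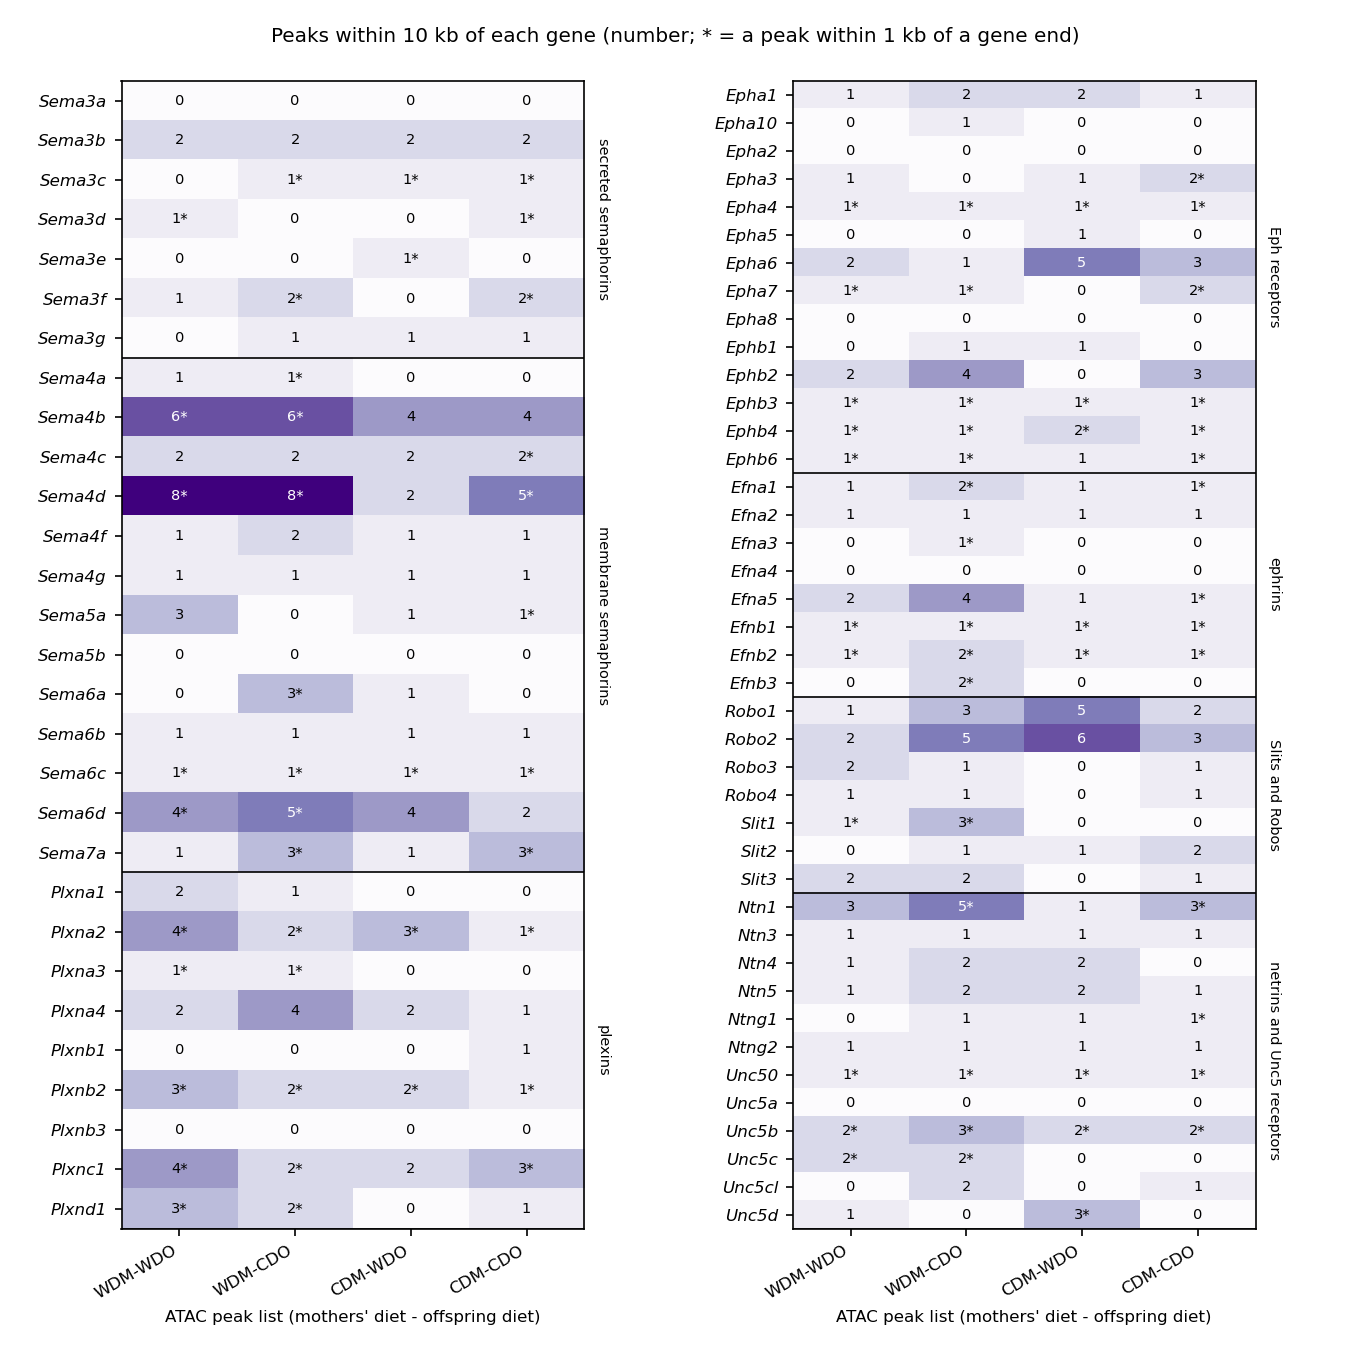
Number of peaks within 10 kb of each of the 70 genes in the 4 peak lists, grouped by role; an asterisk marks a peak within 1 kb of a gene end, and darker cells hold more peaks. Sema4d had 8 peaks in each WDM list, 2 in CDM-WDO, against 5 in CDM-CDO.

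Of the 70 genes, 33 had a peak in all 4 lists (47.1%, against 52.4% of all genes) and 7 had none in any (10%, against 23.3%). Those without were the receptors Epha2, Epha8, Unc5a and Plxnb3, the ephrin Efna4, and the semaphorins Sema3a and Sema5b. A gene-end peak was found in no list for 33 genes (47.1%, against 43.9%). Only 10 had one in every list (14.3%, against 37.0%): Epha4, Ephb3, Ephb4, Efnb1, Efnb2, Sema6c, Plxna2, Plxnb2, Unc5b and Unc50. The strongest gene-end peak belonged in each list to Unc50, at a region that also covers the promoter of its neighbour Coa5, with 133 reads in WDM-WDO, 135 in WDM-CDO, 65 in CDM-WDO, against 99 in CDM-CDO. Behind it came Efnb2 and Sema6c in all 4 lists, with Ephb3 in all but CDM-CDO, Ephb6 in both CDO lists, Efnb1 in WDM-WDO, Unc5b in CDM-WDO and Sema4c in CDM-CDO.

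Regions found in all 4 lists numbered 31 of 186 (16.7%, against 28.7% of regions near all genes). Of these, 14 covered the promoter of a guidance gene and 10 only the promoter of a neighbour, such as Zyx beside Epha1, Dbp beside Ntn5, Cib1 and Gdpgp1 beside Sema4b and Ifrd2 beside Sema3b. Those neighbours carried the deepest peaks counted here: the Zyx region had 241 reads in WDM-WDO, 262 in WDM-CDO, 222 in CDM-WDO, against 166 in CDM-CDO. Another 7 covered no promoter window, among them regions inside Sema4b, Sema4d, Sema6d and Plxnc1.

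Among the genes whose receptors or ligands are typical of endothelium, the Efnb2 and Ephb4 promoters had a peak in all 4 lists. The Efnb2 region at chr8:8660899-8662064 had 69 reads at the summit in WDM-WDO, 105 in WDM-CDO, 62 in CDM-WDO, against 74 in CDM-CDO. The Ephb4 promoter (chr5:137348756-137350340) had 32 reads in WDM-WDO, 47 in WDM-CDO, 38 in CDM-WDO, against 38 in CDM-CDO. Both regions cover the promoter sequences given for these genes, and neither separated the diets by presence. Unc5b, a netrin receptor of sprouting vessels, had 32 reads at its start (chr10:60831129-60832017) in WDM-WDO, 75 in WDM-CDO, 65 in CDM-WDO, against 47 in CDM-CDO. Robo4 had no peak of its own: the only region within 10 kb lay 6725 bp outside its span and inside the neighbouring gene Robo3, a receptor known from commissural axons. That region (chr9:37420748-37421415) had 52 reads in WDM-WDO, 57 in WDM-CDO, against 33 in CDM-CDO, and no peak in CDM-WDO.

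The first comparison was WDM-CDO against CDM-CDO, the diet of the mothers in offspring kept on CD. Near guidance genes, 55 of 115 peaks of WDM-CDO lacked a counterpart in CDM-CDO (47.8%, interval 38.9 to 56.9%), against 33.2% of the peaks near all genes. In the other direction 17 of 76 peaks of CDM-CDO had none in WDM-CDO (22.4%, 14.5 to 32.9%), against 17.6%. By role, 14 of 33 WDM-CDO peaks near membrane semaphorins lacked a counterpart, 10 of 15 near Slits and Robos and 10 of 20 near netrins and Unc5 receptors. The counts were 8 of 14 near plexins, 8 of 13 near ephrins, 5 of 14 near Eph receptors and none of 6 near secreted semaphorins. Most WDM-CDO peaks without a counterpart were shallow, with a median of 25.0 reads against 63.0 for the shared ones. Of the 51 WDM-CDO peaks deep enough to be expected at 2 times the lowest called level of CDM-CDO or more, 4 (7.84%) lacked a counterpart, against 6.94% of such peaks near all genes. In the other direction the same depth left 4 of 59 peaks of CDM-CDO (6.78%, against 8.54%). The lowest called level is that of the whole list. A call needs more reads where the local background is higher, so a peak above that level can go uncalled. Statements below of where calls began give this same level.

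The deepest of these peaks lay at the start of Plxnd1, the semaphorin receptor best known from endothelium. It spanned chr6:115994983-115995315, over the promoter sequence given for the gene, with 96 reads and a −log10 q of 20.9 in WDM-CDO. Scaled by the reads of strong shared peaks, 96 reads correspond to 66.9 reads in CDM-CDO, and no peak was called there. The lowest peak of that list had 14 reads, but the Plxnd1 peak was 3.37-fold above its local background in WDM-CDO. With such a background a call needs more reads than the lowest of the list. Inside the same gene, the region at chr6:115989136-115990250 had 162 reads in WDM-CDO and 81 in CDM-CDO, so the gene was not without peaks in CDM-CDO. The next strongest peaks of WDM-CDO alone in this comparison were weaker: Plxna2 with a −log10 q of 11.5, Ntn1 (netrin-1) with 10.2, Sema4a with 9.11, Plxna3 with 8.76 and Plxna1 with 7.45. After them came Epha4, Sema4f, Efnb3 and Plxna4, between 5.68 and 5.77. Plxna3, an X-linked plexin that pairs with neuropilins, had its peak over the promoter (chrX:74328834-74329136, 39 reads).

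Peaks of CDM-CDO without a counterpart in WDM-CDO were led by the starts of Sema5a (−log10 q 6.04, 28 reads) and Plxnc1 (5.60, 32 reads). The rest lay at or below 4.13, in order Epha6, Epha3, Robo1, Robo2, Epha4, Plxnb1, Epha7 and Sema6d. None of them was strong in its list. At Plxnc1, a receptor for Sema7a, the start was covered in both lists but by separate peaks: chr10:94944828-94945235 in CDM-CDO alone, and an adjoining region at chr10:94942857-94944379 in both. At gene ends, 10 genes had a peak in WDM-CDO and none in CDM-CDO (14.3%, against 4.98% of all genes): Plxnd1, Plxna3, Efna3, Efnb3, Sema4a, Sema4b, Sema6a, Sema6d, Slit1 and Unc5c. The reverse held for 6 (8.57%, against 1.91%): Efna5, Epha3, Ntng1, Sema3d, Sema4c and Sema5a. At Sema4c, over the neighbour Ankrd39, and at Efna5 a peak of the same region was called in both lists, and only the edge of the CDM-CDO peak came within 1 kb. Of the 10 genes with a gene-end peak in WDM-CDO alone, only Plxnd1 was expected at 2 times the lowest called level of CDM-CDO. The others correspond to between 12.7 reads (Sema6d) and 27.8 reads (Plxna3) in CDM-CDO, where calls began at 14. This depth was not applied to the share of all genes.

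**Figure D2:**
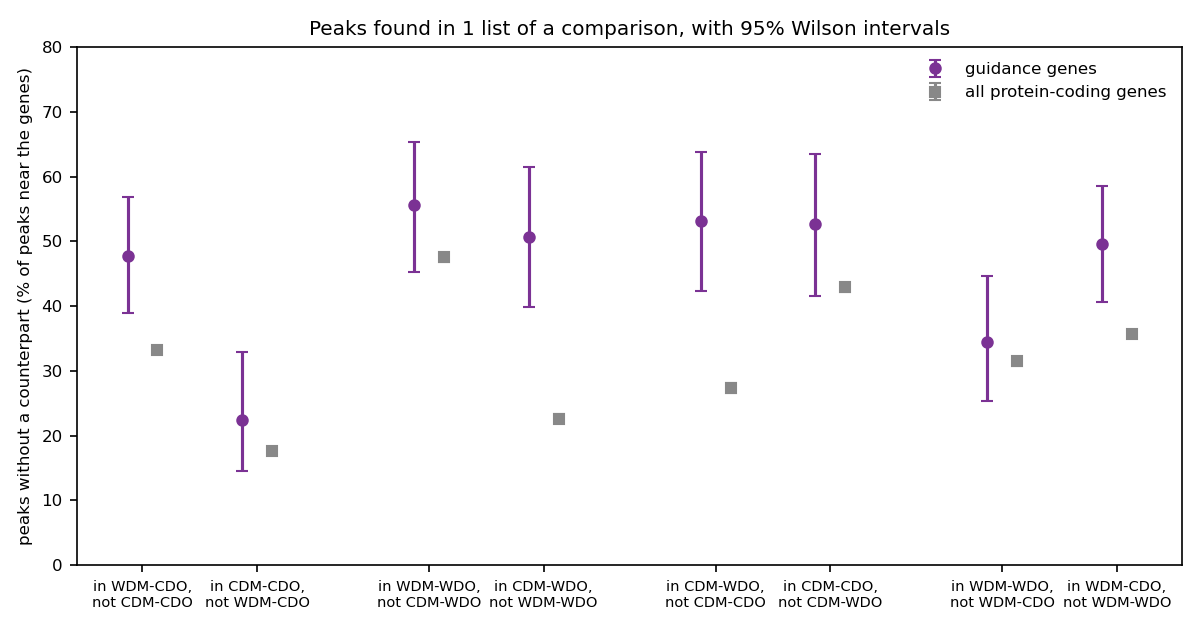
Share of peaks within 10 kb of guidance genes (circles, with 95% Wilson intervals) and of all protein-coding genes (squares) that had no overlapping peak in the other list of a comparison. The guidance-gene share lay above the share for all genes in all 8 pairs, by the widest margin for CDM-WDO peaks without a counterpart in WDM-WDO (50.6% against 22.6%).

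The second comparison was WDM-WDO against CDM-WDO, the diet of the mothers in offspring given WD. Here 50 of 90 peaks of WDM-WDO had no counterpart in CDM-WDO (55.6%, interval 45.3 to 65.4%, against 47.5% of peaks near all genes), and 40 of 79 peaks of CDM-WDO had none in WDM-WDO (50.6%, 39.8 to 61.4%, against 22.6%). Among peaks expected at 2 times the lowest called level of the other list or more, the shares were 32.5% for WDM-WDO (13 of 40, against 18.3%) and 23.9% for CDM-WDO (11 of 46, against 8.04%). Of the WDM-WDO peaks near membrane semaphorins 17 of 29 had no counterpart, and of those near plexins 11 of 19. These role groups held the most peaks of the list, and both shares were near that of all guidance genes. The 40 of CDM-WDO were 11 of 12 peaks near Slits and Robos, 8 of 15 near Eph receptors and 7 of 19 near membrane semaphorins. They further included 7 of 14 near netrins and Unc5 receptors, 3 of 5 near secreted semaphorins, 2 of 5 near ephrins and 2 of 9 near plexins. Plexins had 19 peaks in WDM-WDO, against 9 in CDM-WDO, and 7 of 9 plexins had a peak in WDM-WDO against 4 in CDM-WDO. Near all genes there were 20469 peaks in WDM-WDO against 13848 in CDM-WDO, and 66.0% of all genes had a peak in WDM-WDO against 58.9% in CDM-WDO.

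In WDM-WDO the strongest peaks without a counterpart in CDM-WDO belonged to Sema4f (−log10 q 13.5, 54 reads), the end of Slit1 (13.3, 50 reads) and the shared Robo3 and Robo4 region (13.2, 52 reads). They were followed by the start of Epha7 (11.3), an inner region of Plxnd1 (11.2), an inner promoter of Sema4d (10.2), Ntn1 (9.82), Plxna1 (9.44) and Sema7a (9.40). The inner Plxnd1 peak had 69 reads, which corresponds to 48.7 reads in CDM-WDO, where calls began at 15. The Plxnd1 promoter itself had 64 reads in WDM-WDO, and the Plxna3 promoter 37, with no peak in CDM-WDO at either. Both promoters therefore had a peak with WDM mothers and none with CDM mothers under each offspring diet. Unc5c was the only other gene with promoter sequence to do so, with 21 reads in WDM-WDO and 27 in WDM-CDO. These 3 make up 4.92% of the 61 genes, against 1.22% of all genes with promoter sequence. Of the 3, only Plxnd1 was expected at 2 times the lowest called level or more. The Plxna3 peaks correspond to 26.7 reads in CDM-WDO and 27.8 in CDM-CDO, and those of Unc5c to 15.7 and 19.5. Calls began at 15 in CDM-WDO and at 14 in CDM-CDO.

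CDM-WDO peaks without a counterpart in WDM-WDO were led by Efna5 (−log10 q 8.70, 35 reads), 1014 bp outside the gene, and by an inner region of Robo2 (8.11, 27 reads). Then came Epha1, Sema3g, Ntn4, Ephb1, Epha3, Ntn5, Plxna4 and Sema6d, between 6.90 and 3.93. Sema3g, a secreted semaphorin of vessel endothelium, had its only region 2226 bp outside the gene, with 39 reads in CDM-WDO, which corresponds to 55 reads in WDM-WDO, where calls began at 16. At gene ends, 11 genes had a peak in WDM-WDO and none in CDM-WDO (15.7%, against 9.57% of all genes): Plxnd1, Plxna3, Plxnc1, Epha7, Ephb6, Sema3d, Sema4b, Sema4d, Sema6d, Slit1 and Unc5c. At Ephb6 the same region was called in CDM-WDO as well, with its edge beyond 1 kb. Only 3 had the reverse (4.29%, against 2.14%), namely Sema3c, Sema3e and Unc5d, each with 20 reads or fewer. Macrophage markers had 24 peaks in WDM-WDO, against 8 in CDM-WDO, and lymphocyte markers 20 in WDM-WDO and 8 in CDM-WDO; their part in these differences was not tested.

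**Figure D3:**
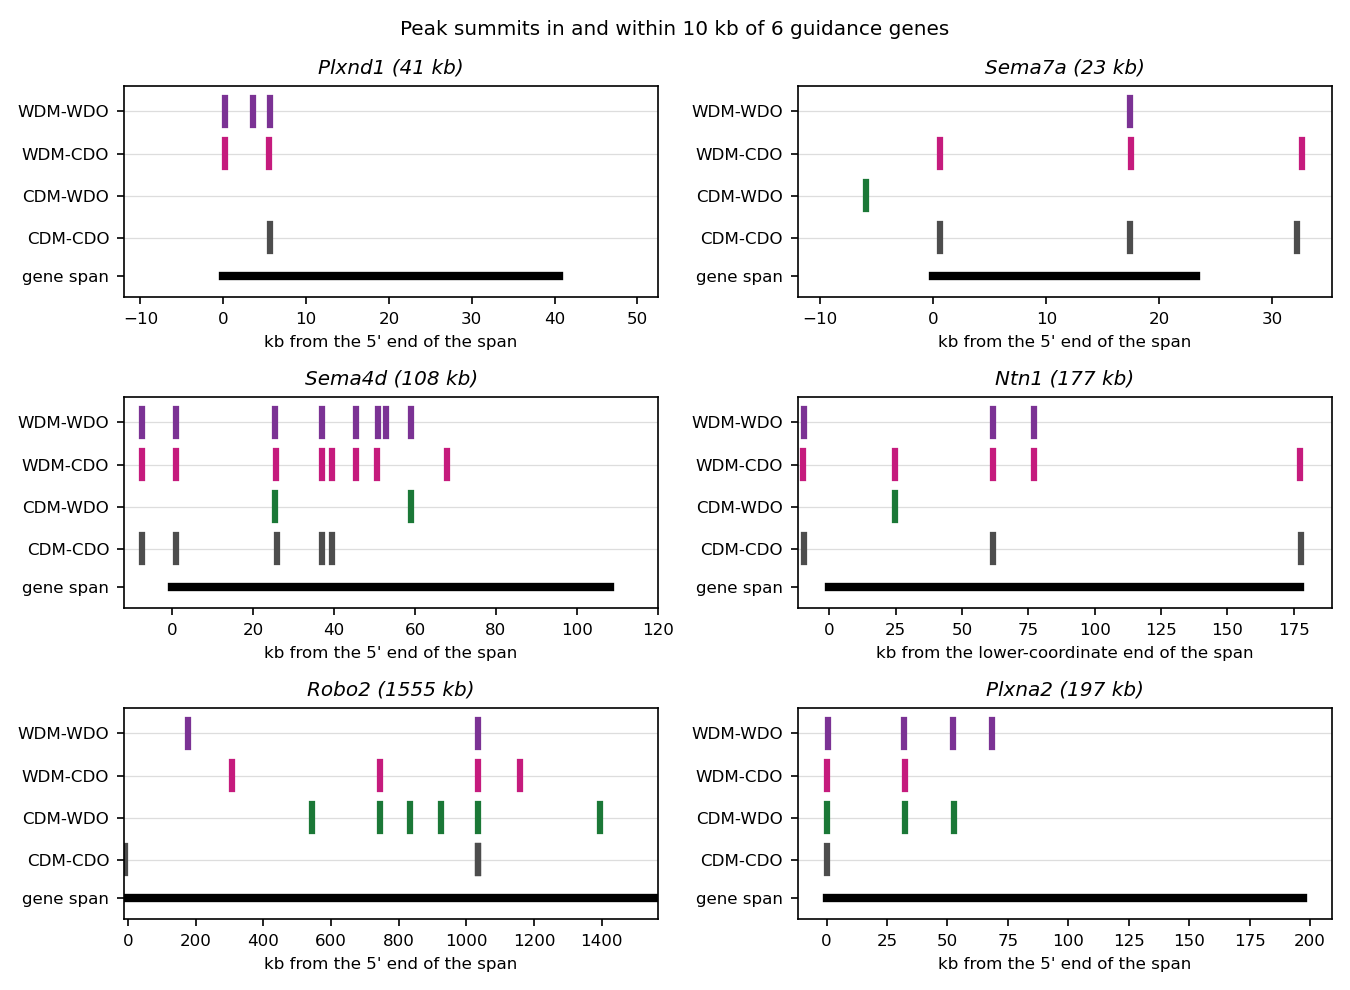
Summits of peaks (vertical ticks) within 10 kb of 6 genes in the 4 lists, by distance in kb from the start of the gene, or from its lower-coordinate end where the strand was not used (Ntn1); the bar is the span. Plxnd1 has its tick at 0 in both WDM lists alone, and most ticks of Robo2 stand in a single list.

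The third comparison was CDM-WDO against CDM-CDO, the diet of the offspring of CDM mothers, which cannot be told apart from the 12w and 08w labels. Near guidance genes 42 of 79 peaks of CDM-WDO lacked a counterpart in CDM-CDO (53.2%, interval 42.3 to 63.8%, against 27.4% near all genes). Of the CDM-CDO peaks, 40 of 76 had none in CDM-WDO (52.6%, 41.6 to 63.5%, against 42.9%). At the depth set out for the maternal comparisons, the shares were 26.7% for CDM-WDO (12 of 45, against 11.7%) and 31.7% for CDM-CDO (13 of 41, against 20.9%). The peaks missing from CDM-WDO included some of the deepest near these genes. The strongest lay beside Ntn1, in the region chr11:68198805-68200555, with 107 reads in CDM-CDO, which corresponds to 88.9 reads in CDM-WDO, where calls began at 15. Others belonged to Sema4d (62 reads), an inner region of Plxnd1 (81 reads), an inner region of Sema7a (62 reads) and the upper-coordinate end of Sema3f (55 reads). Weaker ones lay at Epha7, Efna1, Ephb2, Sema5a and Robo1.

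CDM-WDO peaks without a counterpart in CDM-CDO were led by an inner region of Plxna2 (−log10 q 11.8, 38 reads), which corresponds to 44.7 reads in CDM-CDO, where calls began at 14. Robo2 (8.11), Plxna4 (7.99), Epha1 (6.90), Epha6 (6.11), Ntn4 (6.07), Ephb1 (5.90), Sema4d (5.31), Plxnb2 (4.83) and Ntn5 (4.56) followed. The gene-end balance ran the other way. Only Sema3e and Unc5d had a gene-end peak in CDM-WDO and none in CDM-CDO (2.86%, against 2.01% of all genes). In CDM-CDO 14 genes had one that CDM-WDO lacked (20%, against 9.96%): Sema3d, Sema3f, Sema4c, Sema4d, Sema5a, Sema7a, Plxnc1, Efna1, Efna5, Epha3, Epha7, Ephb6, Ntn1 and Ntng1. At Sema4c (64 reads), Efna5 (35 reads) and Ephb6 (23 reads) the same region was called in CDM-WDO too, with its edge more than 1 kb from the gene end. Lymphocyte markers had 8 peaks in CDM-WDO and 22 in CDM-CDO, and endothelial markers 26 in CDM-WDO, against 11 in CDM-CDO; the part of either in these counts was not tested.

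The fourth comparison was WDM-WDO against WDM-CDO, the diet of the offspring of WDM mothers, again with the 12w and 08w labels. The share of WDM-WDO peaks without a counterpart in WDM-CDO was near that of all genes, 31 of 90 (34.4%, interval 25.4 to 44.7%, against 31.5%). Of the WDM-CDO peaks, 57 of 115 had none in WDM-WDO (49.6%, 40.6 to 58.6%, against 35.7%). At the same depth as before, the shares were 19.4% for WDM-WDO (13 of 67, against 20.8%) and 18.5% for WDM-CDO (10 of 54, against 13%). Of the 31 WDM-WDO peaks without a counterpart, 9 lay near plexins, which had 19 of the 90 peaks of the list. The plexin peaks were led by Plxna1 (−log10 q 9.44, 57 reads), Plxnc1 (8.31), Plxna2 (7.91) and Plxnb2 (7.17). Sema4b, Sema4d, Plxnd1, Efna5, Slit3 and Sema6d came after them. The Plxna1 peak corresponds to 68.3 reads in WDM-CDO, where calls began at 15.

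WDM-CDO peaks without a counterpart in WDM-WDO were led by the upper-coordinate end of Sema3f (−log10 q 27.3, 82 reads) and a region 8770 bp outside Sema7a (21.4, 77 reads). The Sema3f peak corresponds to 68.1 reads in WDM-WDO and the Sema7a peak to 64.1, and calls began there at 16. Efna5 (11.5), Sema4a (9.11), Ntn1 (8.78), Plxna1 (7.45), Sema3g (7.0), Ephb2 (6.88), Slit3 (6.34) and Efnb3 (5.74) came next. At gene ends, Sema3d alone had a peak in WDM-WDO and none in WDM-CDO (1.43%, against 2.75% of all genes), with 20 reads. The reverse held for 9 genes (12.9%, against 6.33%): Sema3c, Sema3f, Sema4a, Sema6a, Sema7a, Efna1, Efna3, Efnb3 and Ntn1.

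Counted as peaks rather than genes, the peaks at gene ends lacked a counterpart more often near guidance genes than near all genes in each direction, by a small margin in 1 of them. In WDM-CDO 13 of 31 were missing from CDM-CDO (41.9%, against 12.7% of all gene-end peaks), and in CDM-CDO 6 of 26 were missing from WDM-CDO (23.1%, against 6.07%). In WDM-WDO 10 of 21 were missing from CDM-WDO (47.6%, against 24.5%), and in CDM-WDO 4 of 14 from WDM-WDO (28.6%, against 6.97%). Between the offspring diets, 4 of 14 in CDM-WDO were missing from CDM-CDO (28.6%, against 6.67%) and 14 of 26 in CDM-CDO from CDM-WDO (53.8%, against 24.9%). With WDM mothers, 2 of 21 in WDM-WDO were missing from WDM-CDO (9.52%, against 9.40%) and 11 of 31 in WDM-CDO from WDM-WDO (35.5%, against 16.6%). These counts are small. Away from gene ends, the guidance-gene share lay below that of all genes in 5 of the 8 directions, for example 22.0% against 31.4% for CDM-CDO peaks missing from WDM-CDO and 58.0% against 67.6% for WDM-WDO peaks missing from CDM-WDO. It lay above in the other 3, with 55.4% against 42.0% for CDM-WDO peaks missing from WDM-WDO, 58.5% against 53.0% for CDM-WDO peaks missing from CDM-CDO, and 54.8% against 53.0% for WDM-CDO peaks missing from WDM-WDO. Peaks at gene ends were a smaller part of the peaks near guidance genes, for instance 31 of 115 in WDM-CDO against 10278 of 21582 near all genes, and they lacked a counterpart less often than the other peaks in 6 of 8 directions near guidance genes and in all 8 near all genes.

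Promoter windows were counted in the 61 genes with promoter sequence. A peak covered a promoter window of 22 genes in WDM-WDO (36.1%, against 46.5% of all genes in the table), 25 in WDM-CDO (41.0%, against 50.2%), 17 in CDM-WDO (27.9%, against 40%) and 20 in CDM-CDO (32.8%, against 47.2%). Covered in WDM-CDO but not in CDM-CDO were 8 genes (13.1%, against 4.40%), namely Plxnd1, Plxna3, Efna1, Efna3, Epha4, Sema3c, Sema6d and Unc5c, and the reverse held for Epha3, Plxnc1 and Slit2 (4.92%, against 1.40%). Covered in WDM-WDO but not in CDM-WDO were 6 (9.84%, against 8.44%), Plxnd1, Plxna3, Epha7, Sema3d, Sema4d and Unc5c, and the reverse held for Sema3c (1.64%, against 1.90%). Epha4, Epha6 and Sema3c were covered in CDM-WDO and not in CDM-CDO (4.92%, against 1.53%), while Epha3, Epha7, Plxnc1, Sema4d, Sema7a and Slit2 were covered in CDM-CDO and not in CDM-WDO (9.84%, against 8.77%). Epha6 and Sema3d were covered in WDM-WDO and not in WDM-CDO (3.28%, against 2.11%), and Efna1, Efna3, Sema3c, Sema6d and Sema7a in WDM-CDO and not in WDM-WDO (8.20%, against 5.82%).

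Sema7a, a semaphorin tied to the membrane by a lipid anchor and found on lymphocytes as well as on vessel cells, had a promoter peak that split by offspring diet. Its promoter region (chr9:57940082-57940638) had 66 reads in WDM-CDO, against 48 in CDM-CDO, and no peak in either WDO list. The region inside the gene (chr9:57956529-57957486) had 46 reads in WDM-WDO, 116 in WDM-CDO, against 62 in CDM-CDO, and none was called in CDM-WDO. It was the only gene of the 61 whose promoter had a peak in both CDO lists and in no WDO list (1.64%, against 2.15% of all genes), a share near the background. Both Sema3f regions were called in the CDO lists, and 1 of them also in WDM-WDO. The one outside the gene had 40 reads in WDM-WDO, 72 in WDM-CDO, against 52 in CDM-CDO, and the one at its upper-coordinate end 82 in WDM-CDO and 55 in CDM-CDO.

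Ntn1, which encodes netrin-1, and Sema4d, which encodes a semaphorin first described on T cells, were missing most peaks in CDM-WDO. Ntn1 had 5 regions in all, of which 3 were called in WDM-WDO, 5 in WDM-CDO, 1 in CDM-WDO, against 3 in CDM-CDO. Its strongest region had 46 reads in WDM-WDO, 142 in WDM-CDO and 107 in CDM-CDO. Sema4d had 10 regions, of which 8 were called in WDM-WDO, 8 in WDM-CDO, 2 in CDM-WDO, against 5 in CDM-CDO. The region present in all 4 lists (chr13:51767581-51768542) had 57 reads in WDM-WDO, 79 in WDM-CDO, 33 in CDM-WDO, against 78 in CDM-CDO. Its gene start (chr13:51791960-51793491) had 37 reads in WDM-WDO, 42 in WDM-CDO, against 36 in CDM-CDO, and no peak in CDM-WDO. In the same list lymphocyte markers had their lowest count (8 peaks), and Cd3e, Cd4, Cd8a and Bcl11b had no peak; their part in this was not tested.

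Over all regions near guidance genes, 14 of 186 were absent from CDM-WDO alone (7.53%, against 7.63% near all genes), a share near the background. Regions in both CDO lists alone numbered 10 (5.38%, against 6.37%) and those in both WDM lists alone 9 (4.84%, against 3.75%). The 9 lay near Plxnd1, Plxna3, Sema4b, Sema4d (2 regions), Sema4f, Slit1, Ntn1 and Unc5c. Among regions of a single list, those of CDM-WDO lay furthest above the share near all genes, 27 of 186 (14.5%, against 6.87%). WDM-CDO alone had 36 (19.4%, against 14.8%), WDM-WDO alone 24 (12.9%, against 16.7%) and CDM-CDO alone 13 (6.99%, against 7.58%). The other combinations were rare: 6 regions stood in WDM-CDO and CDM-WDO alone (3.23%, against 1.0%), 4 in both WDO lists alone (2.15%, against 1.38%), 2 in WDM-WDO and CDM-CDO alone (1.08%, against 1.11%) and 2 in both CDM lists alone (1.08%, against 0.348%). Absent from CDM-CDO alone were 4 (2.15%, against 2.16%), absent from WDM-WDO alone another 4 (2.15%, against 1.19%), and absent from WDM-CDO alone none (against 0.342%).

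The regions of CDM-WDO alone lay mostly in long genes. Of the 27, 21 were in genes over 300 kb, including 4 each in the axon receptors Robo1 (1020 kb) and Robo2 (1555 kb) and 3 each in Epha6 (969 kb), Sema6d (578 kb) and Unc5d (573 kb). Their median was 18.0 reads, between 15 and 31, in a list where calls began at 15, and 1 of the 27 reached a −log10 q of 5. Robo2 had 11 regions, of which 2 were called in WDM-WDO, 4 in WDM-CDO, 6 in CDM-WDO, against 3 in CDM-CDO, all with 27 reads or fewer. Robo1 had 8, of which 1 was called in WDM-WDO, 3 in WDM-CDO, 5 in CDM-WDO, against 2 in CDM-CDO. The largest counts of regions belonged to Robo2 and Sema6d (11 each), Sema4d (10), Robo1 (8), and Epha6 and Sema4b (7 each). Of the Robo2 regions 9 stood in a single list, against 2 of the Sema4d regions. Per 100 kb, guidance genes over 300 kb had 0.219 peaks in WDM-WDO, 0.274 in WDM-CDO, 0.339 in CDM-WDO, compared with 0.197 in CDM-CDO, against 0.444 in WDM-WDO, 0.559 in WDM-CDO, 0.390 in CDM-WDO, compared with 0.401 in CDM-CDO for all genes of that length.

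**Figure D4:**
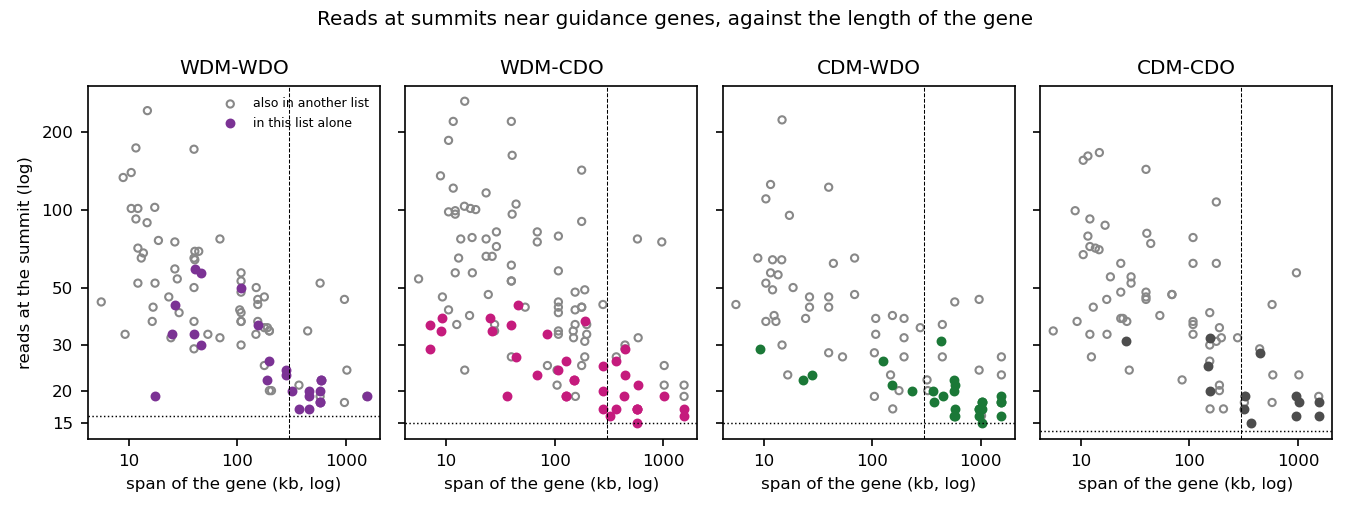
Reads at the summit of each peak near a guidance gene against the length of the gene, both on log axes, in the 4 lists; filled points are regions found in that list alone, the dashed line marks 300 kb and the dotted line the lowest reads of any peak called in the list. In CDM-WDO the filled points crowd at 15 to 31 reads, and 21 of 27 lie to the right of the dashed line.

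The share of peaks without a counterpart was higher in long genes, guidance genes or not. In genes over 300 kb, 83.9% of the 31 guidance-gene peaks of CDM-WDO had no counterpart in WDM-WDO, against 66.9% for all genes of that length. In genes under 50 kb the share was 23.3%, against 12.9%. Such long genes held 22.2% of guidance-gene peaks in WDM-WDO, 21.7% in WDM-CDO, 39.2% in CDM-WDO, compared with 23.7% in CDM-CDO, against 7.04 to 9.02% of the peaks near all genes. Without them, the share of CDM-WDO peaks missing from WDM-WDO was 29.2%, against 18.3%, and the share of CDM-CDO peaks missing from WDM-CDO was 8.62%, against 15.4%, below the background.

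By role, the families differed in where their peaks lay. Slits and Robos had 31 regions but a gene-end peak only at Slit1, in both WDM lists (50 reads in WDM-WDO, 32 in WDM-CDO). Secreted semaphorins were the sparsest, with 8 regions near 7 genes, and Sema3e, the ligand of plexin-D1, had a single peak, called in CDM-WDO at its start with 20 reads. Membrane semaphorins had 51 regions, and a gene-end peak at 4 of 13 genes in WDM-WDO, 7 in WDM-CDO, 1 in CDM-WDO, against 5 in CDM-CDO. Only Sema6c had it in all 4. Sema6b, a membrane ligand with its single region over an inner promoter, had 102 reads in WDM-WDO, 78 in WDM-CDO, 95 in CDM-WDO, against 45 in CDM-CDO. Plexins had a gene-end peak at 5 of 9 genes in WDM-WDO, 5 in WDM-CDO, 2 in CDM-WDO, against 3 in CDM-CDO; Plxna2 and Plxnb2, a receptor for Sema4 proteins, had it in all 4.

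Near all genes the peaks numbered 20469 in WDM-WDO, 21582 in WDM-CDO, 13848 in CDM-WDO, against 17562 in CDM-CDO. Ephrins had 6 peaks in WDM-WDO, 13 in WDM-CDO, 5 in CDM-WDO, against 5 in CDM-CDO. The 8 WDM-CDO peaks without a counterpart in CDM-CDO included the starts of Efna1 (38 reads) and Efna3 (34 reads), GPI-anchored ligands whose genes lie close together on chromosome 3, and both were called in WDM-CDO alone. The X-linked Efnb1 had its start covered in every list, with 65 reads in WDM-WDO, 65 in WDM-CDO, 37 in CDM-WDO, against 42 in CDM-CDO. Eph receptors had a gene-end peak at 5 of 14 genes in WDM-WDO, 5 in WDM-CDO, 3 in CDM-WDO, against 6 in CDM-CDO. Ephb3 had 76 reads in WDM-WDO, 100 in WDM-CDO, 50 in CDM-WDO, against 55 in CDM-CDO. Ephb6, a receptor that lacks kinase activity and is expressed in T cells, had its promoter window covered in every list (42 reads in WDM-WDO, 101 in WDM-CDO, 23 in CDM-WDO, against 87 in CDM-CDO). The start of Epha7 had 37 reads in WDM-WDO, 41 in WDM-CDO, against 30 in CDM-CDO, and no peak in CDM-WDO.

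**Figure D5:**
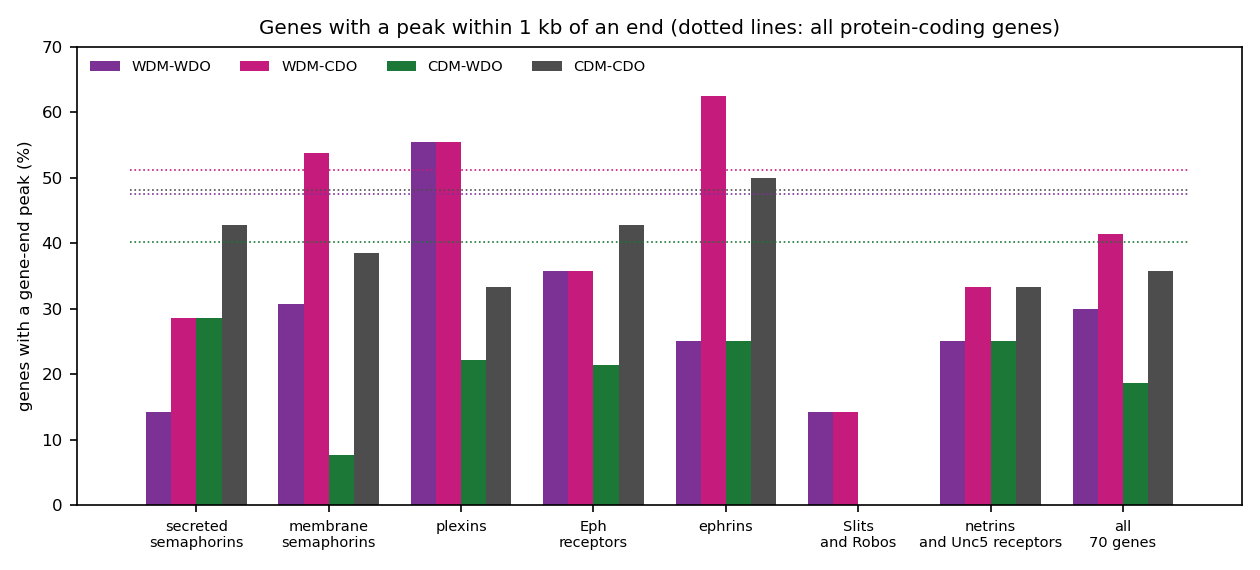
Percent of genes of each role group with a gene-end peak, no more than 1 kb from an end of the gene, in the 4 lists (bars); dotted lines give the share of all protein-coding genes in the list of the same colour. For all 70 genes the bars stand at 30% in WDM-WDO, 41.4% in WDM-CDO, 18.6% in CDM-WDO, against 35.7% in CDM-CDO, each below its line.

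Where 2 lists shared a peak, its position was similar. The summits of shared peaks lay a median of 54.5 bp apart in WDM-CDO against CDM-CDO, 71.0 bp in WDM-WDO against CDM-WDO, 62.0 bp in CDM-WDO against CDM-CDO and 67.0 bp in WDM-WDO against WDM-CDO. For all genes the 4 medians lay between 56.0 and 60.0 bp. Summits over 300 bp apart made up 22.5% of shared peaks (9 of 40) between WDM-WDO and CDM-WDO, against 8.23% near all genes. Across the 31 regions of all 4 lists the summits spread over a median of 129 bp, from 21 to 811 bp, the widest at an inner promoter of Robo2. At the start of Sema6d the peaks of WDM-WDO (chr2:124090579-124090972) and WDM-CDO (chr2:124089991-124090364) did not overlap, with 18 reads in WDM-WDO and 17 in WDM-CDO. At Epha4, CDM-CDO had a peak at chr1:77515812-77516254, beside the region at chr1:77514646-77515722 that the other lists shared.

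The partners of these families, taken as a list of 45 coreceptors and signal transducers, were set beside them. A peak within 10 kb was present for 39 of them in WDM-WDO (125 peaks), 41 in WDM-CDO (133 peaks), 35 in CDM-WDO (65 peaks), against 39 in CDM-CDO (99 peaks). Of all genes, 66.0% had one in WDM-WDO, 68.8% in WDM-CDO, 58.9% in CDM-WDO, against 64.5% in CDM-CDO. Without a counterpart were 48.1% of their WDM-CDO peaks against CDM-CDO (33.2% near all genes), 62.4% of their WDM-WDO peaks against CDM-WDO (47.5%), 33.8% of their CDM-WDO peaks against CDM-CDO (27.4%) and 48.0% of their WDM-WDO peaks against WDM-CDO (31.5%). In the opposite directions the shares were 31.3% for CDM-CDO against WDM-CDO (17.6%), 27.7% for CDM-WDO against WDM-WDO (22.6%), 57.6% for CDM-CDO against CDM-WDO (42.9%) and 51.1% for WDM-CDO against WDM-WDO (35.7%). The strongest such peaks of WDM-CDO against CDM-CDO lay at Srgap3 (−log10 q 14.9, 51 reads), a GTPase activator downstream of Robo, Nrp2 (14.2, 60 reads), a semaphorin coreceptor, the actin-binding Ablim1 (13.7), the netrin receptor Neo1 (10.6) and the semaphorin effector Mical2 (8.49). Tiam1, which activates the GTPase Rac, led the WDM-WDO peaks without a counterpart in CDM-WDO (20, 57 reads) and the CDM-CDO peaks without one in CDM-WDO (18.8, 53 reads). In CDM-WDO the leading peaks without a counterpart in CDM-CDO were at Ablim1 (9.31), Met (7.14) and Nrp2 (6.21).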

How the data were processed

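ATAC-seq of mouse aortic endothelial cells was used in 8 samples, assigned to 4 groups of 2 by their titles; the 4 H3K27ac samples were not analysed here. Each group had 1 deposited peak list in the narrowPeak format. The submitters' processing notes list MACS2 2.2.9.1 among the tools, with Bowtie2 2.4.5, SAMtools 1.13, Trim Galore 0.6.10, FastQC 0.12.1 and deepTools 3.5.4, and GRCm38 (mm10) as the build. Their settings, any pooling of samples and any transposase offset of the read ends are not given in the sources used here. Each peak's fold enrichment, a ratio over local background, and its −log10 p and −log10 q are the authors' deposited values.

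Whole reads at each summit were recovered from the fold and the −log10 p, on the rule that MACS2 adds 1 read to pileup and background and tests the pileup by a Poisson law; 100% of peaks fitted a whole number, with a relative tolerance of 0.0001. The step was tested on simulated data. Reads were carried to another list by the ratio at strong shared summits (0.686 for WDM-CDO to CDM-CDO, for instance). Peaks with several summits were counted once. Peaks sharing at least 1 bp were counterparts, and peaks of the 4 lists that overlapped were merged into regions. Gene spans came from RefSeq for GRCm38.p6, strand and promoter windows from its promoter table, where 61 of the 70 genes are found; Ntn1, Sema6a, Slit1, Unc5d, Sema3f, Plxna4, Sema3b, Plxna1 and Efnb3 are not in it. Coordinates are 1-based.

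The genes, gene lists and comparisons were chosen with earlier results of these data known. Named were, in each list, the 5 genes with the strongest gene-end peak; in each comparison and direction, up to 10 genes with the strongest peak lacking a counterpart; the 5 genes with most regions; the genes with none; and the leading pathway genes. Other genes were named after their values were seen. Groups were compared without a test. The alternatives were a −log10 q of at least 5, an overlap of 50%, a window of 1 kb, lists of equal length, the nearest gene only and gene ends of 2 kb. Python 3.11.15, numpy 2.4.6, pandas 2.3.3, scipy 1.17.1 and matplotlib 3.10.9 were used.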

Additional observations from a re-analysis of the deposited data

Results flagged for a closer look

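In 12 of the 70 genes the number of regions differed in opposite directions with the diet of the mothers under the 2 offspring diets, while 16 had the same direction (14 with more regions in the WDM list under both, 2 with fewer) and 42 had no difference in at least 1 comparison. The values below are the WDM-WDO minus CDM-WDO difference in regions less the WDM-CDO minus CDM-CDO difference. They came to -5 for Robo1 and -5 for Robo2, and to -4 for Sema6a and -4 for Plxna4. The value was -3 for Ntn4, and -2 for Epha1, Ephb1 and Ntn5. It was 3 for Sema5a, and 2 for Epha7, Plxnc1 and Sema3d. For Robo2, for example, 2 regions were called in WDM-WDO, against 6 in CDM-WDO, but 4 in WDM-CDO, against 3 in CDM-CDO. In each of these genes the difference was not tested, since every group had a single peak list, and several rest on 1 shallow peak. No such count was made for all protein-coding genes, so whether 12 of 70 exceeds their share is not known.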

How the results depend on the processing

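No paired analysis was possible because each group had a single peak list, and for the same reason no replicate could be left out. Of 64 recomputed shares of peaks without a counterpart, 41 moved by less than their counting interval and 23 by more; of 16 recomputed counts of genes, 14 stayed within 1.5 times. With a −log10 q of at least 5 the share was 33.3% for WDM-CDO peaks missing from CDM-CDO (against 22.4% near all genes) and 6.12% for the reverse (against 6.59%). It was 29.7% for CDM-WDO peaks missing from WDM-WDO (against 6.24%) and 32.4% for CDM-WDO missing from CDM-CDO (against 11.6%). For WDM-WDO missing from WDM-CDO it was 14.8% (against 19.5%), and for the reverse 33.3% (against 25.8%). At that level 27 genes had a peak in CDM-WDO. With an overlap of 50% the share was 68.9% for WDM-WDO missing from CDM-WDO (against 55.3%) and 64.6% for the reverse (against 33.9%). It was 65.8% for CDM-WDO missing from CDM-CDO (against 36.8%) and 64.5% for the reverse (against 50.2%). With lists of equal length it was 36.3% for WDM-CDO missing from CDM-CDO (against 22.2%) and 42.4% for WDM-WDO missing from CDM-WDO (against 34.7%). With gene ends of 2 kb, 20 genes had a gene-end peak in CDM-WDO. Neither this count nor that of the 27 genes was recomputed for all protein-coding genes.

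Another 3 alternatives were chosen after seeing the data: deep peaks, genes under 300 kb, and no peaks over a neighbour's promoter. Among peaks expected at 2 times the lowest called level or more, the share was 7.84% for WDM-CDO missing from CDM-CDO and 6.78% for the reverse, 32.5% for WDM-WDO missing from CDM-WDO and 23.9% for the reverse, 26.7% for CDM-WDO missing from CDM-CDO and 31.7% for the reverse, and 19.4% for WDM-WDO missing from WDM-CDO and 18.5% for the reverse. In genes under 300 kb the share was 8.62% for CDM-CDO missing from WDM-CDO (against 15.4%). It was 29.2% for CDM-WDO missing from WDM-WDO (against 18.3%) and 35.4% for CDM-WDO missing from CDM-CDO (against 23.4%). Of the 8 shares, 6 lay above that of all genes in all 8 settings where both were computed; CDM-CDO missing from WDM-CDO and WDM-WDO missing from WDM-CDO did so in 5 of 8. The cause of these shifts was not tested. The lowest peaks called in a list had 14 to 16 reads, and a call needs more where the local background is higher. A missing peak below the level needed at its place is not shown to be absent.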
